A study of Mus musculus with 24 samples.

Results

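The transcripts described here are those of 7 genes that set when a cell enters mitosis, out of 21671 genes in the files. They were selected by symbol and are the phosphatases Cdc25a, Cdc25b and Cdc25c, the inhibitory kinases Wee1 and Pkmyt1, and the kinases Cdk1 and Cdk2. All 7 symbols were present once in each of the 24 RNA-Seq files, and all 7 passed the expression filter in every fit.

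RNA was profiled in splenic cells of C57/Bl6 mice at 8 weeks of age. B cells were captured on B220 magnetic beads, and the non-B cells are whatever passed through the column, a mixture of T cells, NK cells, myeloid cells and others. Mice were wild-type (Trp53+/+) or carried a constitutive deletion of p53 in all cells (Trp53-/-), and were left unstressed (mock) or killed 4 h after 7 Gy of whole-body ionizing radiation (IR). Each combination of cell type and treatment holds 4 Trp53+/+ and 2 Trp53-/- samples, from different mice, so that the spread between samples includes that between animals, and the labels do not tell whether a B and a non-B sample of the same number share a spleen. The study used these groups to ask which responses to DNA damage in vivo need p53 and which differ between cell types. The paper reports that the cells were mostly quiescent, with no shift between cell cycle phases after IR. It also reports apoptosis after IR that depended on p53.

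Cdk1, bound to cyclin B, drives entry into mitosis, and Cdk2, bound to cyclins E and A, drives S phase. Until the cell is ready, Wee1 and Pkmyt1 hold these kinases off by phosphorylating their ATP-binding site, and the Cdc25 phosphatases remove those phosphates. After DNA damage the checkpoint kinases inactivate the Cdc25 proteins, mostly by phosphorylation, sequestration and degradation, while p53 lowers the transcription of many genes of the G2 and M phases through its target p21 and the DREAM repressor complex. The values below are transcript levels only and do not measure the activity or phosphorylation of any of these proteins.

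The files give RPKM, a read density corrected for the length of the gene and for the number of exonic reads in the library, so that levels can be compared between genes as well as between samples. In unstressed B cells, Cdc25b and Cdk2 were the 2 members with the highest RPKM and Cdc25c was the one with the lowest. A gene was called when its adjusted p was under 0.05 and its absolute log2 fold change was above 0.58, in limma on log2(RPKM + 0.5), with p adjusted by the Benjamini-Hochberg method over all genes of the fit. For a difference between 2 responses, only the adjusted p was used.

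The samples were first checked against their labels. Estimated depth lay between 4.755 and 11.025 M reads (mega), with a median of 8.78 M. The summed RPKM of 7 B cell markers was 734 to 988 in B samples and 192 to 504 in non-B samples, and that of 7 T cell markers was 27.0 to 54.0 against 268 to 580. Trp53 itself was read at an RPKM of 21.6 and 21.7 in unstressed Trp53-/- B cells against 44.8 to 47.9 in Trp53+/+ ones, so the deleted allele still gave reads, and in irradiated non-B cells the genotypes overlapped, at 34.6 and 36.4 against 35.0 to 38.6. Cdkn1a, the p53 target that encodes p21, separated the genotypes, with 82.3 to 97.8 in irradiated Trp53+/+ B cells against 0.562 and 0.726 in irradiated Trp53-/- B cells. Some libraries stood apart. In irradiated Trp53+/+ B samples 1, 2 and 4 and non-B samples 1, 3 and 4, between 15.97% and 51.3% of 1440 olfactory and vomeronasal receptor genes, which are silent in spleen, had a value above 0, against 5.42% to 13.1% in the other samples. These 6 are called receptor-rich below. Leaving them out keeps 1 irradiated Trp53+/+ sample per cell type, B sample 3 and non-B sample 2. A call lost on leaving them out thus cannot be told apart from the loss of samples. Unstressed Trp53+/+ non-B samples 1 and 2 held the most erythroid and cycling-cell transcripts, as given below with the results they touch.

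**Figure D1:**
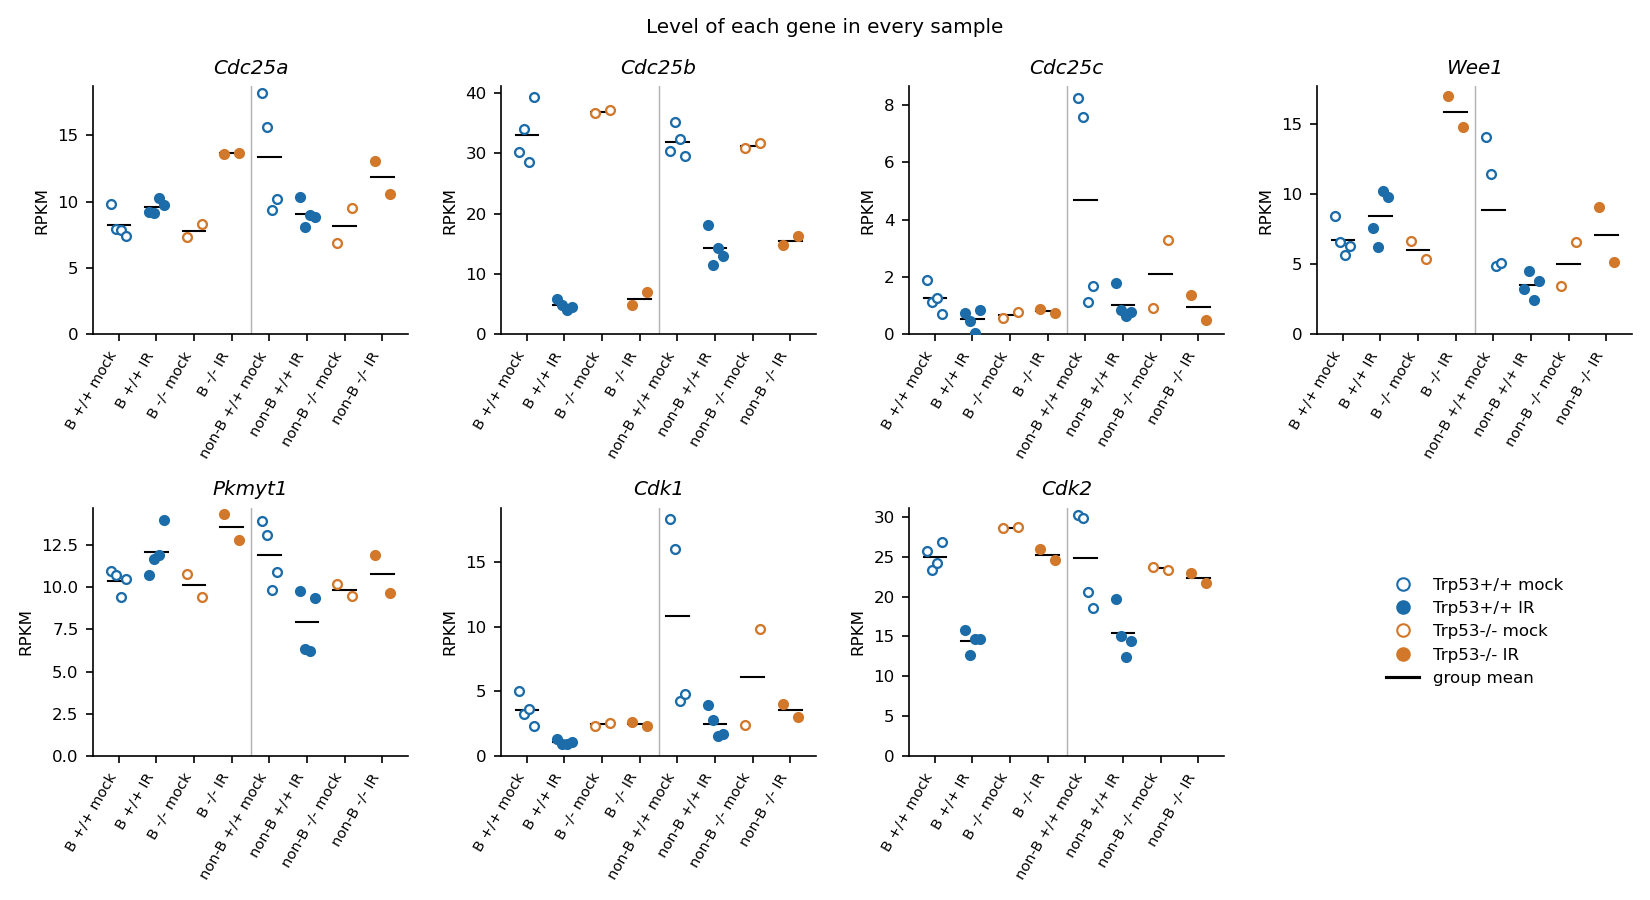
RPKM of each of the 7 genes (1 panel per gene, linear axis from 0) in the 8 groups, with a point per sample, open for mock and filled for IR, blue for Trp53+/+ and orange for Trp53-/-, and a bar at the group mean. Cdc25b dropped after IR in all 4 pairs of groups, and the 4 unstressed Trp53+/+ non-B samples split widely for Cdk1, between 4.25 and 18.4.

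The promoters of the members that have a RefSeq entry are shown because the repression of G2 and M phase genes is known to work through short elements just upstream of the start. Entries were found for 4 of the 7 members, and Cdc25c, Wee1 and Pkmyt1 had none. The 250 bases before the annotated start of each gene follow in the 5' to 3' direction of the gene, on the GRCm38.p6 build, at chr10:69352913-69353162 (minus strand) for Cdk1, chr10:128705052-128705301 (minus strand) for Cdk2, chr2:131186698-131186947 (plus strand) for Cdc25b and chr9:109875329-109875578 (plus strand) for Cdc25a. Capitals mark exact matches on either strand to the cell cycle genes homology region (CHR, TTTGAA), the CCAAT box (CCAAT) or an E2F site (TTTCCCGC, TTTCGCGC, TTTGCCGC or TTTGGCGC).
Cdk1: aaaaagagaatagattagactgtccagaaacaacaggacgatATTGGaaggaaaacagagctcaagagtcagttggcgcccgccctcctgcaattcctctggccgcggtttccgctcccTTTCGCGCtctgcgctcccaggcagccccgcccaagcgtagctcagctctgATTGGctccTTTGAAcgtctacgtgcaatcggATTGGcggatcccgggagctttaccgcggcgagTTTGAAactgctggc
Cdk2: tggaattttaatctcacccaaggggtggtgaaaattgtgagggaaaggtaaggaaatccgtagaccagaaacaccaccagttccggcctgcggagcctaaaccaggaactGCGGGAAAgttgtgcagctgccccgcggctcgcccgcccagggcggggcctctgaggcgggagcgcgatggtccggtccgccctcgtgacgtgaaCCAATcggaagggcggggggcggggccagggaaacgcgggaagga
Cdc25b: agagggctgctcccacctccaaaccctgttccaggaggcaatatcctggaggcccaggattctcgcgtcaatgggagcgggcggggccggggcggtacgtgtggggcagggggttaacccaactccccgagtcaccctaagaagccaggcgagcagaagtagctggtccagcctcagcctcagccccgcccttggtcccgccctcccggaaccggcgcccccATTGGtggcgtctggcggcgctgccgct
Cdc25a: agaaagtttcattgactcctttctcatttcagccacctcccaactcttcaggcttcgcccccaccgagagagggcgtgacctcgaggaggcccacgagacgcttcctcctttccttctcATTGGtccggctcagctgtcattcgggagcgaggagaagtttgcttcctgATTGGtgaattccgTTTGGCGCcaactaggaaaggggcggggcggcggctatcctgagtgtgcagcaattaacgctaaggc

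In these windows Cdk1 held 2 CHR, 3 CCAAT boxes and 1 E2F site, and the first CHR began 4 bases after a CCAAT box. Cdc25a held 2 CCAAT boxes and 1 E2F site, Cdk2 held 1 of each, and Cdc25b held 1 CCAAT box. No CHR was found in the windows of Cdc25a, Cdc25b or Cdk2. Of 32851 RefSeq promoters searched over 250 bases before to 50 after the start, 17.9% held a CHR, 37.4% a CCAAT box and 2.26% an E2F site. None of the 4 members held the decamer that p53 binds, which 8.36% of the promoters did. The motifs do not overlap each other in their letters. A match is a description of the letters, and no match says nothing about binding outside the window.

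Cdc25b, the phosphatase thought to start the activation of Cdk1 at the centrosome, fell after IR in both cell types and both genotypes. On mm9 it lies at chr2:131012685-131024233 on the plus strand, and 92 of its exonic bases are shared with Spef1 on the other strand, which reads from a kit that does not mark strand cannot tell apart. In unstressed Trp53+/+ B cells its RPKM was 30.1, 34.1, 28.5 and 39.3, and in irradiated ones it was 5.94, 4.85, 4.03 and 4.57. Without p53 it was 36.6 and 37.0 unstressed and 4.81 and 7.02 after IR. Every irradiated B sample was thus far below every unstressed one, whichever the genotype.

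In B cells the log2 fold change of Cdc25b was -2.65 (SE 0.14, adjusted p = 1.87e-08, limma) with p53 and -2.56 (SE 0.19, adjusted p = 1.91e-06) without it. This left 0.159 and 0.169 of the unstressed level on the RPKM + 0.5 scale. The difference between the genotypes was -0.087, with a 95% confidence interval of -0.60 to 0.43 (adjusted p = 0.841). A genotype effect smaller than these bounds was not detectable with 2 Trp53-/- samples per group.

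In non-B cells Cdc25b was 30.3, 35.1, 32.4 and 29.5 in unstressed Trp53+/+ samples and 18.2, 11.5, 14.4 and 12.9 after IR. The Trp53-/- samples had 30.8 and 31.6 unstressed and 14.8 and 16.2 after IR. The groups did not overlap in either genotype, but the irradiated non-B samples all stayed above the irradiated B samples. The log2 fold change was -1.15 (SE 0.12, adjusted p = 0.000104, limma) in Trp53+/+ and -0.99 (SE 0.17, adjusted p = 0.0395) in Trp53-/- non-B cells, and the genotypes differed by -0.16 (95% confidence interval -0.62 to 0.30, adjusted p = 0.663). With the replicate number as a block the Trp53-/- call was lost (adjusted p = 0.104), and leaving out any 1 of its 4 samples also ended it at a log2 fold change of -1.05 to -0.92.

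The fall of Cdc25b was larger in B cells than in non-B cells, by -1.499 on the log2 scale (SE 0.19, adjusted p = 1.03e-05, limma over all 24 samples). Before IR the level did not differ between the cell types beyond the spread, at a difference of 0.044 (95% confidence interval -0.24 to 0.33, adjusted p = 0.825). Ordered by mean RPKM, the 4 unstressed groups of Cdc25b (31.2 to 36.8) stood apart from the irradiated non-B groups (14.2 and 15.5), which stood apart from the irradiated B groups (4.84 and 5.91). Neighbours within each of these 3 tiers overlapped.

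Cdc25a, the phosphatase that acts on Cdk2 at the start of S phase and whose protein is destroyed after damage, did not fall in B cells. Its gene spans chr9:109778083-109796392 on the plus strand of mm9. Its RPKM was 9.82, 7.94, 7.85 and 7.44 in unstressed Trp53+/+ B cells and 9.25, 9.16, 10.2 and 9.73 after IR. Those of Trp53-/- B cells were 7.30 and 8.29 unstressed and 13.6 and 13.7 after IR. The irradiated Trp53-/- B samples were the highest of all B samples, while the Trp53+/+ ranges overlapped. Cdc25a rose without p53, by 0.77 (SE 0.14, adjusted p = 0.000737, limma), and its change with p53 of 0.21 (SE 0.096) missed the threshold (adjusted p = 0.0862). The genotypes differed by -0.56 (SE 0.17, adjusted p = 0.0352), a call lost with a replicate block (adjusted p = 0.0781). It was also lost without any 1 of the 4 Trp53-/- samples, Trp53+/+ unstressed sample 2 or irradiated sample 1 (-0.65 to -0.48). The same held with samples 3 and 4 of the Trp53+/+ groups alone (-0.41) and without the receptor-rich irradiated samples (-0.47). With the mean log2 level of the receptor genes as a covariate it was lost as well (-0.50).

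Among non-B cells Cdc25a was 18.1, 15.6, 9.35 and 10.2 in unstressed Trp53+/+ samples and 10.3, 8.08, 8.99 and 8.81 after IR. The Trp53-/- samples had 6.85 and 9.48 unstressed and 13.1 and 10.5 after IR. Only the first pair of unstressed Trp53+/+ samples exceeded every irradiated sample of that genotype, and neither change passed the test, with -0.49 (SE 0.20, adjusted p = 0.11) in Trp53+/+ and 0.52 (SE 0.29, adjusted p = 0.422) in Trp53-/- cells by limma. The response of Trp53+/+ cells differed between B and non-B cells by 0.70 (SE 0.23, adjusted p = 0.0263). Without unstressed non-B samples 1 and 2 this difference was 0.32 and was no longer called.

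Cdc25c, the phosphatase that amplifies Cdk1 activation in mitosis, was near the limit of detection in B cells. It lies at chr18:34892651-34911187 on the minus strand of mm9. The RPKM was 1.90, 1.14, 1.28 and 0.728 in unstressed Trp53+/+ B cells and 0.754, 0.485, 0.065 and 0.841 after IR, the lowest of which corresponds to about 1 read. Trp53-/- B cells had 0.559 and 0.792 unstressed and 0.898 and 0.75 after IR. The Trp53+/+ groups overlapped. The call of -0.80 (SE 0.28, adjusted p = 0.0321, limma) was lost with a pseudocount of 1, at -0.57, and without irradiated sample 3, at -0.54, as well as without unstressed samples 1, 2 or 3 or irradiated sample 2, at -0.82 to -0.64. The change was 0.18 in Trp53-/- B cells (adjusted p = 0.772), and the genotype difference of -0.98 did not pass (95% confidence interval -2.05 to 0.092, adjusted p = 0.194).

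In unstressed Trp53+/+ non-B cells Cdc25c was 8.25, 7.59, 1.15 and 1.70, and after IR it was 1.79, 0.853, 0.639 and 0.77. Trp53-/- non-B cells had 0.916 and 3.29 unstressed and 1.39 and 0.505 after IR. Samples 1 and 2 of the unstressed Trp53+/+ group carried the high level, and the other 2 lay within the irradiated range. The log2 fold change of -1.46 (SE 0.56) missed the threshold (adjusted p = 0.0863, limma).

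The inhibitory kinases did not fall with Cdc25b in B cells, whereas in Trp53+/+ non-B cells they too were lower after IR. Wee1, the nuclear kinase that phosphorylates Cdk1 and Cdk2, maps to chr7:117265864-117285626 on the plus strand. In Trp53+/+ B cells it was 8.45, 6.59, 5.63 and 6.31 unstressed and 7.62, 6.21, 10.2 and 9.80 after IR. Its level in Trp53-/- B cells was 6.67 and 5.40 unstressed and 17.0 and 14.8 after IR. The irradiated Trp53-/- samples were above every other sample of the series for this gene. Wee1 rose without p53, by 1.33 (SE 0.23, adjusted p = 0.000636, limma), or to 2.51 times the unstressed level on the RPKM + 0.5 scale. With p53 the change was 0.30 (SE 0.16, adjusted p = 0.146), although samples 3 and 4 alone gave 0.70 (adjusted p = 0.00686) and samples 1 and 2 alone gave -0.11, and the genotypes differed by -1.03 (SE 0.28, adjusted p = 0.0244). That difference was not called without Trp53-/- unstressed sample 2 (-0.89) or irradiated sample 1 (-0.94), with Trp53+/+ samples 3 and 4 alone (-0.63), or without the receptor-rich irradiated samples (-0.75).

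In non-B cells Wee1 was 14.1, 11.4, 4.86 and 5.09 in unstressed Trp53+/+ samples and 3.26, 4.53, 2.47 and 3.78 after IR. Trp53-/- samples had 3.45 and 6.59 unstressed and 9.06 and 5.15 after IR. All irradiated Trp53+/+ samples were below all unstressed ones, narrowly so for unstressed samples 3 and 4. Wee1 fell by 1.11 on the log2 scale (SE 0.35, adjusted p = 0.0479, limma) in Trp53+/+ cells, a call close to the threshold that was lost without either of unstressed samples 1 and 2 or any 1 of the irradiated samples, at -1.23 to -0.85. The value of 0.47 (SE 0.50) in Trp53-/- cells did not pass (adjusted p = 0.711), nor did the genotype difference of -1.58 (95% confidence interval -2.91 to -0.25, adjusted p = 0.133). The Trp53+/+ response differed between B and non-B cells by 1.405 (SE 0.41, adjusted p = 0.0129). Leaving out unstressed non-B samples 1 and 2 brought this to 0.77, which was not called.

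Pkmyt1, the membrane-bound relative of Wee1 that acts on Cdk1, maps to chr17:23863303-23873696 on the plus strand and shares 313 exonic bases with Paqr4 on the other strand. In Trp53+/+ B cells it was 10.9, 10.8, 9.40 and 10.5 unstressed and 10.8, 11.7, 11.9 and 13.96 after IR, and the Trp53-/- B samples had 10.8 and 9.44 unstressed and 14.3 and 12.8 after IR. The Trp53+/+ groups overlapped by 1 sample and the Trp53-/- groups did not overlap. No call was made in B cells, with 0.20 (SE 0.094, adjusted p = 0.0912, limma) in Trp53+/+ and 0.41 (SE 0.13, adjusted p = 0.0283) in Trp53-/- cells, the latter under the fold threshold. In Trp53+/+ non-B cells Pkmyt1 was 13.9, 13.1, 9.82 and 10.9 unstressed and 9.80, 6.35, 6.21 and 9.35 after IR. These groups were separate by a narrow margin, and the log2 fold change of -0.576 (SE 0.17, adjusted p = 0.0374) stopped just short of 0.58. The Trp53-/- non-B samples had 10.2 and 9.48 unstressed and 11.9 and 9.64 after IR. The Trp53+/+ responses of B and non-B cells differed by 0.78 (SE 0.20, adjusted p = 0.00547), and this held without unstressed non-B samples 1 and 2.

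Cdk1, the mitotic kinase itself, fell after IR in Trp53+/+ cells. The gene occupies chr10:68799383-68815686 on the minus strand of mm9. In Trp53+/+ B cells its RPKM was 5.07, 3.28, 3.66 and 2.30 unstressed and 1.30, 0.946, 0.922 and 1.08 after IR. Its values in Trp53-/- B cells were 2.33 and 2.58 unstressed and 2.62 and 2.33 after IR. Irradiated Trp53+/+ B cells lay below every other B sample, and the Trp53-/- B samples lay together irrespective of IR. The log2 fold change was -1.35 (SE 0.20, adjusted p = 0.000105, limma) with p53 and 0.0088 (95% confidence interval -0.59 to 0.61, adjusted p = 0.993) without it. The genotype difference was -1.36 (SE 0.34, adjusted p = 0.016), and it was not called without Trp53-/- unstressed sample 1 (-1.29) or 2 (-1.42) or irradiated sample 1 (-1.28), with Trp53+/+ samples 3 and 4 alone (-1.19), or without the receptor-rich irradiated samples (-1.49).

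In non-B cells Cdk1 was 18.4, 16.04, 4.25 and 4.77 in unstressed Trp53+/+ samples and 3.95, 2.81, 1.56 and 1.73 after IR, and in Trp53-/- samples it was 2.41 and 9.82 unstressed and 4.02 and 3.03 after IR. The Trp53+/+ groups did not overlap, though their nearest samples were close, and the 2 unstressed Trp53-/- samples were spread around the irradiated ones. Cdk1 fell by 1.71 on the log2 scale (SE 0.52, adjusted p = 0.0401, limma) in Trp53+/+ cells. The call was lost without unstressed samples 1 or 2 or irradiated samples 2, 3 or 4, at -1.78 to -1.38, and the value was -0.80 without unstressed samples 1 and 2 together. The change of -0.45 (SE 0.73) in Trp53-/- non-B cells did not pass (adjusted p = 0.825), and the genotype difference was -1.26 with a 95% confidence interval of -3.22 to 0.70 (adjusted p = 0.403).

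Cdk2, the S phase kinase, fell after IR in Trp53+/+ cells of both types. It spans chr10:128134995-128142107 on the minus strand. Its RPKM in Trp53+/+ B cells was 25.7, 23.3, 24.2 and 26.8 unstressed and 15.8, 12.7, 14.6 and 14.6 after IR. Trp53-/- B cells had 28.6 and 28.7 unstressed and 25.9 and 24.6 after IR. The Trp53+/+ groups were well apart and the Trp53-/- groups were apart by a smaller step. Cdk2 fell by 0.77 (SE 0.073, adjusted p = 2.98e-06, limma) with p53, the value without p53 was -0.18 (SE 0.10, adjusted p = 0.195), and the genotypes differed by -0.60 (SE 0.13, adjusted p = 0.00704). This genotype difference was called under every alternative and without any 1 sample.

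In non-B cells Cdk2 was 30.3, 29.8, 20.6 and 18.6 in unstressed Trp53+/+ samples and 19.7, 15.1, 12.4 and 14.5 after IR. Trp53-/- samples had 23.7 and 23.4 unstressed and 23.0 and 21.8 after IR. The Trp53+/+ groups overlapped by 1 sample. Cdk2 fell by 0.66 in Trp53+/+ non-B cells (SE 0.17, adjusted p = 0.0228, limma), which was lost without unstressed samples 1 or 2 or irradiated sample 3, at -0.56 to -0.55, and came to -0.35 without unstressed samples 1 and 2 together. The Trp53-/- value was -0.072 (SE 0.24, adjusted p = 0.927), and the genotype difference of -0.59 did not pass (95% confidence interval -1.23 to 0.063, adjusted p = 0.24).

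**Figure D2:**
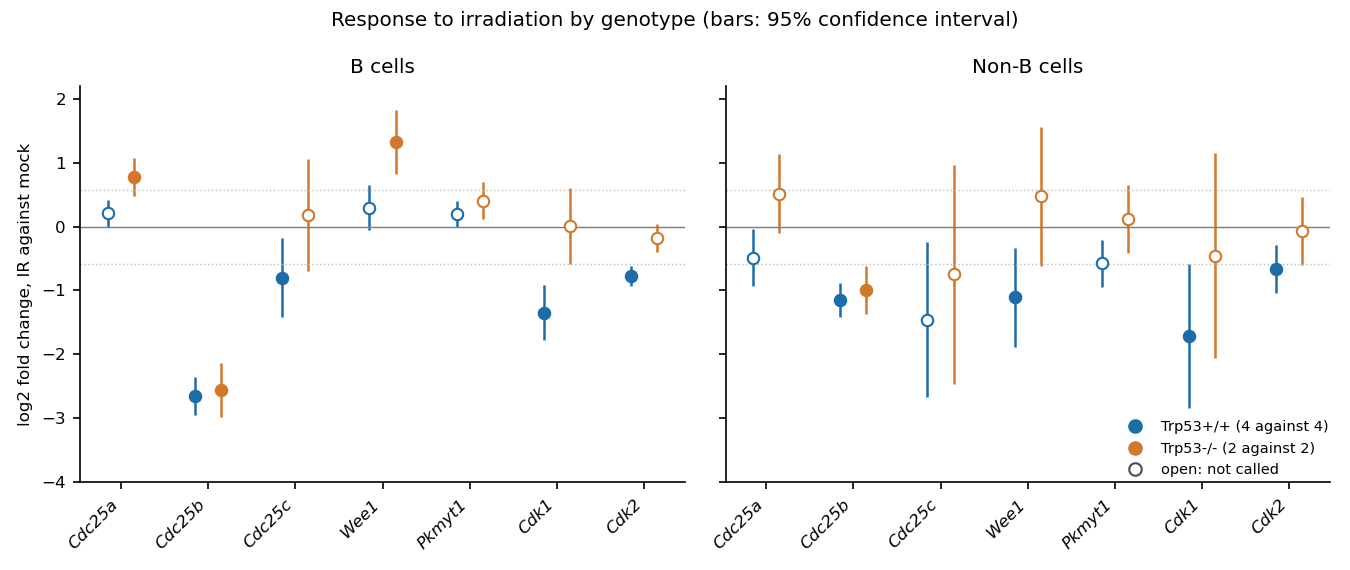
Log2 fold change of IR against mock for each gene, in B cells (left) and non-B cells (right), in Trp53+/+ (blue) and Trp53-/- (orange) samples, with bars for the 95% confidence interval of the limma fit, filled points for called changes and dotted lines at the threshold of 0.58. Cdc25b lay at -2.65 and -2.56 in B cells of the 2 genotypes, whereas Cdk1 lay at -1.35 and 0.0088.

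Counted over the 7 genes, 4 fell and none rose in Trp53+/+ B cells, where 12.2% of 13821 genes fell and 12.5% rose. In Trp53+/+ non-B cells 4 fell and none rose, where 4.11% of 14018 genes fell and 5.74% rose. Of the 7, 1 fell and 2 rose in Trp53-/- B cells, against 11.2% and 13.1% of all genes. In Trp53-/- non-B cells 1 fell and none rose, against 0.25% and 0.193%. The median log2 fold change of the 7 genes was -0.77 in Trp53+/+ B cells and -1.11 in Trp53+/+ non-B cells, beside 0.011 and -0.030 over all genes, and it was 0.18 and -0.072 in the Trp53-/- cells, beside 0.018 and -0.018. The genotypes differed for 4 of 7 in B cells, against 18.8% of all genes, and for none in non-B cells, against 7.35%. In that non-B comparison 3 of 7 had an unadjusted p under 0.05 by limma, as did 3552 of 14018 genes. The B and non-B responses of Trp53+/+ cells differed for 4 of 7, against 30.1% of 14598 genes. As the genes of a pathway share cells and regulators, these counts are not 7 independent observations. The comparisons of the 2 genotypes and of the 2 cell types with the same Trp53+/+ samples share those samples.

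A single gene at a time, an exact two-sided permutation test of mean RPKM over 4 irradiated and 4 unstressed Trp53+/+ samples reached its smallest possible p of 0.0286 for 7 of 14 tests. These were Cdc25b, Cdk1 and Cdk2 in B cells and Cdc25b, Wee1, Pkmyt1 and Cdk1 in non-B cells. The test was run for the 7 genes only, so no share over all genes stands beside this count. By limma without a fold threshold, 51.3% of all genes were called in Trp53+/+ B cells and 18.7% in Trp53+/+ non-B cells. With 2 samples in each Trp53-/- group, no exact test can reach 0.05.

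Without IR, the genotype made no called difference to any of the 7 genes. In B cells 0.0506% of all genes were called and in non-B cells 0.0428% (limma, with none of the 7 genes in B cells and 1, Cdc25a in non-B cells at -0.64, at an unadjusted p under 0.05). Over all genes, 589 of 13821 in B cells and 705 of 14018 in non-B cells had such an unadjusted p. Between unstressed Trp53+/+ B and non-B cells, 3 of the 7 genes were lower in B cells, where 17.4% of all genes were lower and 7.41% higher. These were Cdc25a, by -0.61 (SE 0.16, adjusted p = 0.00433), Cdc25c, by -1.22 (SE 0.46, adjusted p = 0.0385), and Cdk1, by -1.25 (SE 0.41, adjusted p = 0.0184). All 3 calls were lost without either of unstressed non-B samples 1 and 2, and without both the values were -0.24, -0.15 and -0.34.

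These 2 libraries differed from samples 3 and 4 of the same group in other ways. The summed RPKM of 8 erythroid genes was 386 and 381 in samples 1 and 2 and 116 and 139 in samples 3 and 4, and that of 9 genes of cycling cells was 447 and 428 against 197 and 218. After IR, the erythroid sum of Trp53+/+ non-B cells was 22.3 to 89.6 and the cycling sum 136 to 201. Among unstressed Trp53-/- non-B cells, sample 2, with the higher Cdk1, had an erythroid sum of 276 and sample 1 had 60.3. In B cells the erythroid sum was 39.3 to 97.6 in unstressed and 14.4 to 22.4 in irradiated Trp53+/+ samples, so it moved with IR there too. The part of these transcripts in the results was not tested. In such bulk samples, fewer cells of a type and less RNA per cell cannot be told apart.

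Over the 12 unstressed samples, in which the erythroid sum ran from 17.1 to 386, Cdk1 ran from 2.30 to 18.4 RPKM while Cdc25b stayed between 28.5 and 39.3. With irradiated samples included, Pearson's r with the erythroid sum was 0.81 for Cdc25b and 0.94 for Cdk1 over the 12 non-B samples. Over the 12 B samples it was 0.69 and 0.62. With the cycling-cell sum, r was 0.64 for Cdc25b and 0.97 for Cdk1 in non-B samples, and -0.12 and 0.57 in B samples. These samples mix genotypes and treatments. In the unstressed Trp53+/+ non-B samples 3 and 4 alone against irradiated samples 3 and 4, the Cdc25b fall was still called, at -1.15, whereas Wee1, Cdk1 and Cdk2 were not, at -0.62, -1.22 and -0.53. Of these, Cdk2 missed only the fold threshold (adjusted p = 0.0276, limma). Wee1 and Cdk1 missed on adjusted p (0.298 and 0.158, limma), Cdk1 with a larger SE (0.49) than Cdc25b (0.11).

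**Figure D3:**
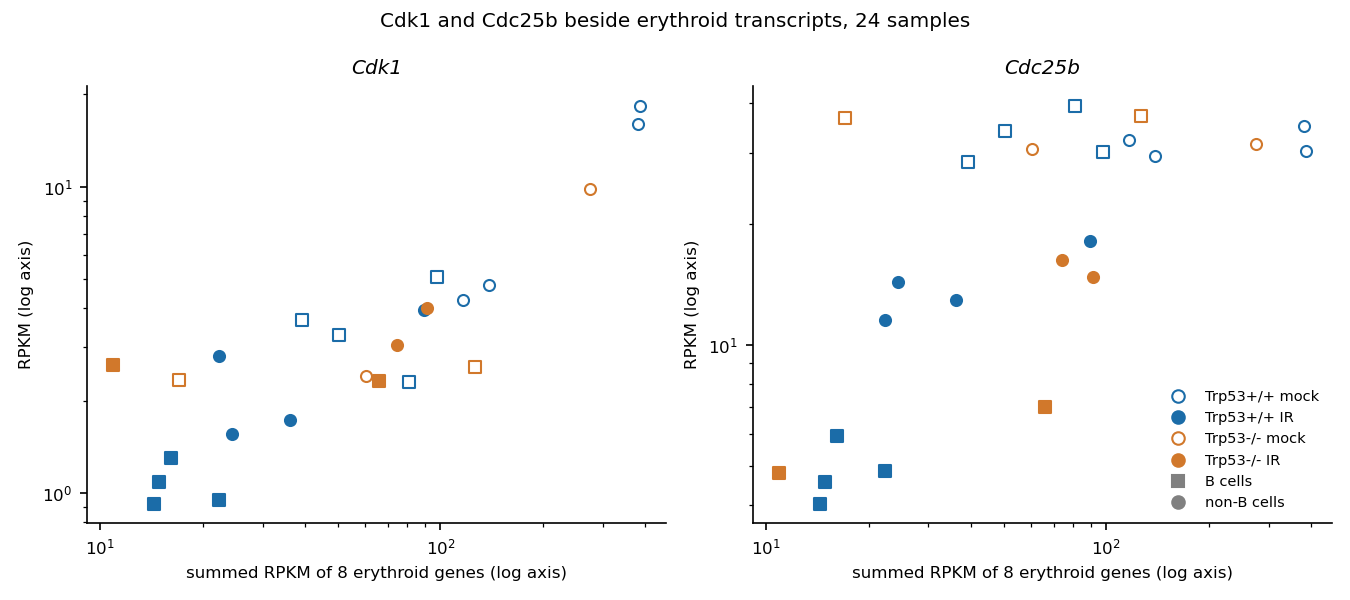
RPKM of Cdk1 (left) and Cdc25b (right) against the summed RPKM of 8 erythroid genes, both axes logarithmic, with a point for each of the 24 samples, squares for B and circles for non-B cells, open for mock and filled for IR, blue for Trp53+/+ and orange for Trp53-/-. The highest Cdk1 values, 18.4, 16.04 and 9.82, belong to the 3 samples with the highest erythroid sums, while the 12 unstressed samples of Cdc25b form a level band.

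The balance between the genes was also compared within libraries, as a description without a test. Cdc25b made up 72.0% to 82.8% of the summed RPKM of the 3 Cdc25 genes in unstressed Trp53+/+ B cells and 28.1% to 37.2% after IR. In Trp53-/- B cells its share was 80.3% and 82.3% unstressed and 24.9% and 32.7% after IR. The main Cdc25 transcript of irradiated B cells was therefore that of Cdc25a, in both genotypes. In Trp53+/+ non-B cells the Cdc25b share was 53.5% to 75.5% unstressed and 56.3% to 59.98% after IR, and the 2 ranges overlapped. The share in Trp53-/- non-B cells was 79.9% and 71.2% unstressed and 50.5% and 59.5% after IR, which do not overlap.

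The summed RPKM of the 3 Cdc25 genes over that of Wee1 and Pkmyt1 was 2.16 to 2.83 in unstressed Trp53+/+ B cells and 0.637 to 0.867 after IR. The ratio in Trp53-/- B cells was 2.55 and 3.11 unstressed and 0.617 and 0.777 after IR. It thus passed from above 2 to below 1 in B cells of both genotypes. In Trp53+/+ non-B cells it was 2.03 to 2.92 unstressed and 1.71 to 2.76 after IR, which overlap, and in Trp53-/- non-B cells it was 2.76 and 2.83 unstressed and 1.39 and 1.84 after IR. These are ratios of transcripts and not of enzyme activities.

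Set against Mki67, a proliferation marker chosen for this after its values were seen, Cdk1 was 0.0878 to 0.110 in unstressed Trp53+/+ B cells and 0.0460 to 0.0591 after IR, and in Trp53+/+ non-B cells it was 0.104 to 0.184 and 0.0567 to 0.0740. The groups were separate in both cell types. In Trp53-/- cells the ratio was 0.0880 and 0.0996 unstressed against 0.0835 and 0.0847 after IR in B cells, and 0.0642 and 0.124 against 0.0756 and 0.0830 in non-B cells. As a share of the summed RPKM of the 9 genes of cycling cells, Cdk1 was 1.55% to 2.08% in unstressed and 0.555% to 0.716% in irradiated Trp53+/+ B cells, and 1.41% and 1.53% against 0.941% and 0.996% in Trp53-/- B cells, where the sum itself was 165 and 168 unstressed and 278 and 233 after IR. Cdk1 itself overlapped there, at 2.326 and 2.576 RPKM unstressed and 2.615 and 2.325 after IR. The lower share in Trp53-/- B cells thus went with a higher sum and not with a lower Cdk1. The sum is not a count of dividing cells, which were few by the paper's account.

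**Figure D4:**
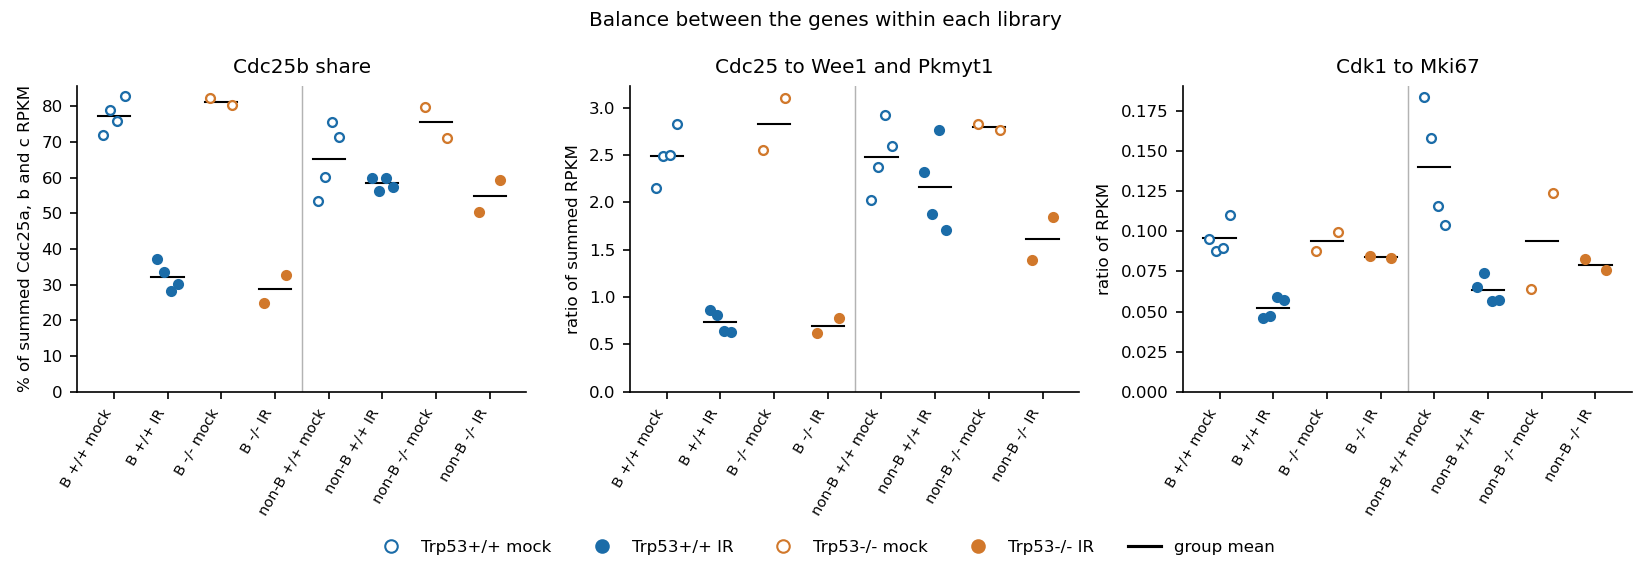
Share of Cdc25b in the summed Cdc25 RPKM in percent (left), ratio of summed Cdc25 RPKM to summed Wee1 and Pkmyt1 RPKM (middle), and ratio of Cdk1 to Mki67 RPKM (right), with a point per sample and a bar at the group mean for the 8 groups. The first 2 measures were lower in every irradiated than in every unstressed B sample of both genotypes, at most 37.2% and 0.867, and the third was at most 0.0740 in irradiated Trp53+/+ cells.

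Of 51 other pathway genes, 11 were called in Trp53+/+ and 11 in Trp53-/- B cells, against 24.7% and 24.3% of all genes. In non-B cells 11 were called in Trp53+/+ and 0 in Trp53-/- samples, against 9.85% and 0.442%. Among the partners of the kinases, 5 of 7 cyclin and Cks genes fell and none rose in Trp53+/+ B cells. The count was the same in Trp53+/+ non-B cells. Over all genes, 12.2% and 4.11% fell in these responses, in that order. Ccne1, which encodes the cyclin E1 that activates Cdk2, fell by 1.64 (SE 0.13, adjusted p = 5.21e-07, limma) in Trp53+/+ and by 1.78 (SE 0.18, adjusted p = 1.14e-05) in Trp53-/- B cells. Its mean RPKM went from 22.1 to 6.87 and from 23.2 to 6.37, so that it shared with Cdc25b a fall in both genotypes. Ccnb1, the mitotic cyclin B1, fell by 1.16 (SE 0.28) in Trp53+/+ B cells and by 2.27 (SE 0.57) in Trp53+/+ non-B cells, and its value in Trp53-/- B cells was -0.52 (adjusted p = 0.326). Ccna2 fell by 0.87 and 1.54 and Ccnb2 by 0.81 and 1.85 in Trp53+/+ B and non-B cells. Among Trp53-/- B cells Ccne1 was the 1 gene of 7 that fell, and Cks2 was the 1 that rose, by 0.71. In Trp53-/- non-B cells none of 7 was called by limma, with values of -1.12 to -0.022. The falls of cyclin genes in Trp53+/+ non-B cells rest in part on the same pair of unstressed samples as those of Cdk1 and Wee1. Ccnb1 was 43.8 and 36.1 RPKM in unstressed samples 1 and 2 and 7.98 and 7.60 in samples 3 and 4, and Ccna2 was 47.8 and 44.9 against 13.4 and 15.3. Without samples 1 and 2, Ccne1 was still called, at -1.39, whereas Ccnb1 (-1.13), Ccna2 (-0.71), Ccnb2 (-0.83) and Cks1b (-0.65) were not. Chek1 and Fbxo5, described next, also lost their calls there, at -0.62 and -0.40, and Chek1 was 8.05 and 7.26 in samples 1 and 2 and 1.65 and 2.04 in samples 3 and 4. Of the 11 pathway genes called in Trp53+/+ non-B cells, 5 stayed called without these samples (Ccne1, Cdkn1a, Gadd45b, Gadd45g and Rbl2) and 3 without the receptor-rich irradiated samples (Ccne1, Cdkn1a and Rbl2). The part of the erythroid and cycling-cell transcripts was not tested.

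None of the 3 genes of the CDK-activating kinase was called in any of the 4 responses, nor was any of the 7 genes of 14-3-3 proteins, which hold phosphorylated Cdc25 in the cytoplasm. Cdk7, the kinase subunit, had values of -0.0024 and -0.23 in Trp53+/+ B and non-B cells. Of 6 kinases and regulators that activate Cdc25 or Cdk1, 1 fell in Trp53+/+ B cells, Aurka, by 0.64 (SE 0.17, adjusted p = 0.00635, limma), and none was called in the other 3 responses. Of 7 parts or regulators of the ubiquitin ligases that turn over Cdc25 and Wee1, Fbxo5, a regulator, fell in Trp53+/+ non-B cells, by 1.04 (SE 0.30). Btrc, whose product recognizes phosphorylated Cdc25a and Wee1, fell in Trp53-/- B cells, by 0.68 (SE 0.17). The median of these 7 was -0.052 in Trp53+/+ B cells, beside 0.011 over all genes.

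Of 7 checkpoint genes upstream of the Cdc25 phosphatases and Wee1, Chek2 rose in Trp53+/+ B cells by 1.73 (SE 0.12, adjusted p = 1.99e-07, limma), and Chek1, which encodes the kinase that marks Cdc25a for destruction, fell in Trp53+/+ non-B cells by 1.52 (SE 0.46, adjusted p = 0.0399). In Trp53-/- B cells 2 rose, Chek1 by 1.99 (SE 0.26) and Atr by 0.73 (SE 0.10). Of 5 inhibitor genes, 2 rose and 1 fell in Trp53+/+ B cells and 3 rose in Trp53+/+ non-B cells. Cdkn1a rose by 5.83 (SE 0.12) and 3.99 (SE 0.21) in Trp53+/+ B and non-B cells and Gadd45g by 1.398 and 1.52, while Cdkn1b, the inhibitor p27, fell in B cells by 0.93. In Trp53-/- B cells Cdkn1a had a value of 0.021 and Gadd45g rose by 1.29, as did Gadd45b, by 0.83, while Gadd45a and Cdkn1b fell by 1.00 and 0.83. Of 9 genes that control the transcription of G2 and M genes, 1 rose in Trp53+/+ B and non-B cells and none fell. It was Rbl2, the pocket protein p130 of the DREAM complex, with 1.09 (SE 0.057) and 0.79 (SE 0.068). In Trp53-/- B cells 1 of these 9 rose, Mybl2, and 1 fell, Rbl2. None of the genes of these 3 lists was called by limma in Trp53-/- non-B cells, where 1 of the 7 members and 2222 of all genes had an unadjusted p under 0.05.

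**Figure D5:**
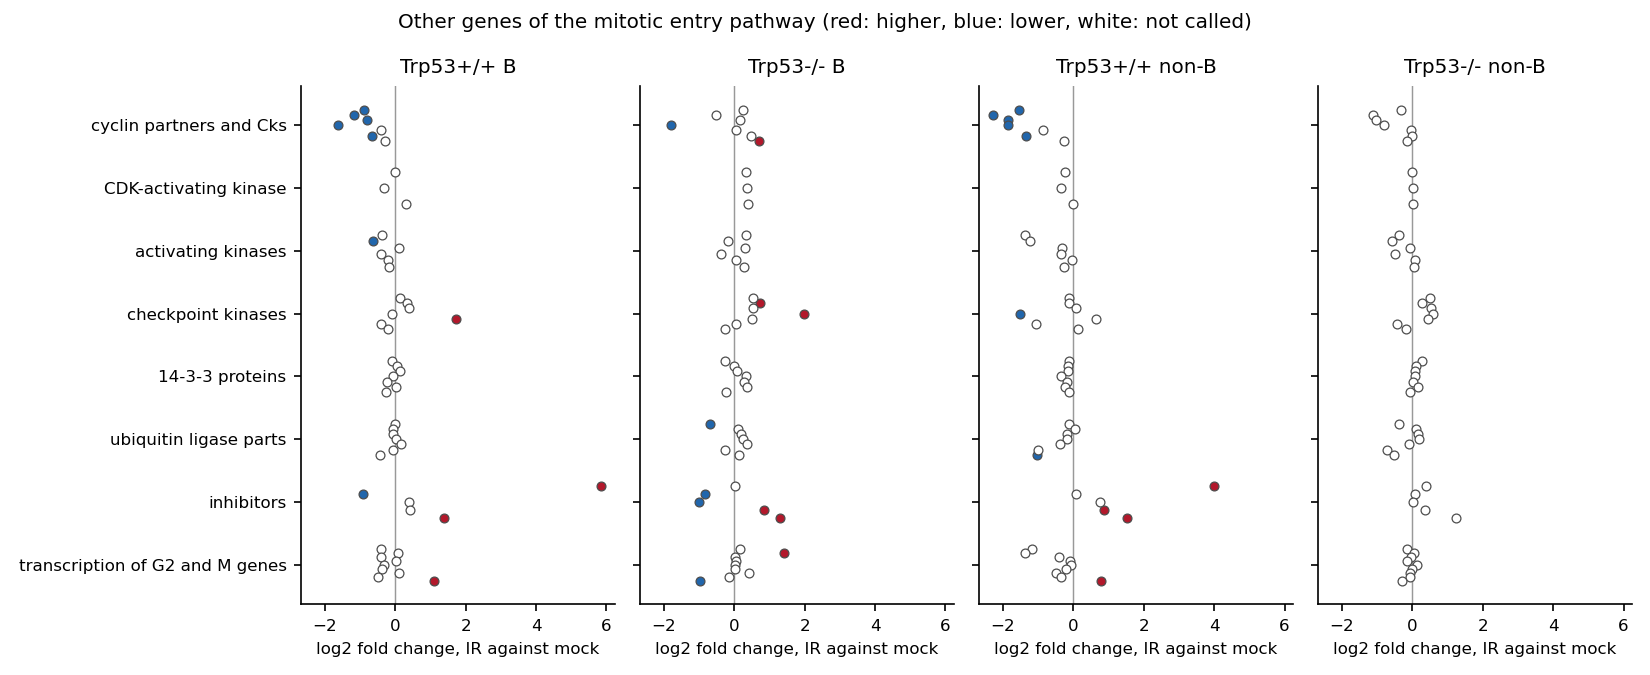
Log2 fold change of IR against mock for the genes of 8 lists of the mitotic entry pathway, with a point per gene in Trp53+/+ B, Trp53-/- B, Trp53+/+ non-B and Trp53-/- non-B cells (left to right, same axis), red for called higher, blue for called lower and white for not called. The cyclin row holds 5 blue points in Trp53+/+ B and non-B cells and 1 in Trp53-/- B cells.

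The genes most like each member were found by Pearson correlation of log2(RPKM + 0.5) with 14688 genes over the 24 samples, which mix cell types, genotypes and treatments. For Cdk1 they were Kif11 (0.98), Ccna2 (0.98) and Ncapg (0.97), and for Cdc25c they were Cdca3, Kif4 and Spag5 (0.96 each). For Cdc25b they were Atp2a3, which encodes an endoplasmic reticulum calcium pump (0.97), Itih5 (0.96) and Esyt1 (0.96). For Wee1 the closest were Cdca7 (0.94) and Fen1, a nuclease of DNA replication (0.94), and for Cdc25a they were 1700001L05Rik (0.94), Recql4 (0.90) and Stk16 (0.89). The highest values were lower for Pkmyt1 (Gm15455, Pabpc4 and Fam73b, 0.87 each) and Cdk2 (Yaf2, 0.91, Trak2, 0.88, and Lin9, 0.88). Among the members, Cdc25c and Cdk1 were most alike (0.94), followed by Wee1 and Pkmyt1 (0.82), while Cdc25b and Wee1 had -0.31.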

How the data were processed

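Total RNA of 24 splenic samples was depleted of ribosomal RNA and made into libraries with a kit that does not keep strand. Low-quality bases (below 20) were masked and reads mapped to mm9 by the authors using TopHat (TopHat2 2.0.8 in the submitters' processing notes). The authors retained a single read from duplicates, counted reads on UCSC genes with featureCounts 1.4.5 and deposited RPKM, scaled to reads on exons, for 21671 genes per sample. Removing duplicates can compress high values: the highest RPKM of a file was 157 to 307, and the members reached 39.3. The authors called differential expression on counts, which were not used here.

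Groups came from the sample labels. RPKM values were tested as log2(RPKM + 0.5) with limma 3.58.1 (R 4.3.3, eBayes with trend) over 12 samples of each cell type, or all 24 for comparisons between cell types, on the genes whose RPKM exceeded 1 in some Trp53+/+ sample of the fit, and p was adjusted by the Benjamini-Hochberg method. Exact permutation tests used scipy 1.17.1. A fold on this scale understates the change of low genes such as Cdc25c. The test was checked on simulated data. Depth was estimated from the lowest values as whole reads, of which 54.7% to 70.0% came within 0.1, so reads are approximate. Positions are from GENCODE on NCBIM37, the assembly of mm9, and promoters from RefSeq on GRCm38.p6.

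The deviations of unstressed and irradiated Trp53+/+ non-B samples with the same number correlated at 0.155 to 0.33, all above 0.1. The main tests used group means only and took no account of this pairing. A replicate block was run as an alternative, and it left the count of 4 called members there as it was. Deviations of same-numbered B and non-B samples correlated at -0.10 to 0.35, above 0.1 in 6 of 12 pairs. The members called in the comparisons of cell types stayed called with a block. The named genes are the 7 members, up to 4 genes of each pathway list (the largest called changes in Trp53+/+ cells, else the highest expressed) and the 3 genes most like each member, of which 1 is not reported here. Further pathway genes were named after their values were seen, where a count of called genes was 5 or fewer, where a call rested on few samples, or where the genotypes differed. The members and lists were chosen with earlier results of these data known. The alternatives tried are given at the end.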

Additional observations from a re-analysis of the deposited data

Results flagged for a closer look

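Of 28 groups of 4 samples, none had a sample beyond Dixon's limit of 0.829. The results singled out are responses that differed between genotypes or cell types by limma. In B cells the response of Trp53+/+ minus that of Trp53-/- samples, on the log2 scale, was -0.56 for Cdc25a (adjusted p = 0.0352), -1.03 for Wee1 (adjusted p = 0.0244), -1.36 for Cdk1 (adjusted p = 0.016) and -0.60 for Cdk2 (adjusted p = 0.00704). For Cdk1 and Cdk2 this went with a fall in Trp53+/+ cells, and for Cdc25a and Wee1 with a rise in Trp53-/- cells. Between the Trp53+/+ cell types, the response of B minus that of non-B cells was 0.70 for Cdc25a (adjusted p = 0.0263), -1.499 for Cdc25b (adjusted p = 1.03e-05), 1.405 for Wee1 (adjusted p = 0.0129) and 0.78 for Pkmyt1 (adjusted p = 0.00547). The genotype differences of Cdc25a, Wee1 and Cdk1 were not called with Trp53+/+ samples 3 and 4 alone (-0.41, -0.63 and -1.19), without the receptor-rich irradiated samples (-0.47, -0.75 and -1.49) or on leaving out certain single Trp53-/- samples, and that of Cdk2 was called under every alternative. Of the 4 differences between cell types, Cdc25b and Pkmyt1 were called under every alternative and without any 1 sample.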

How the results depend on the processing

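The fall of Cdc25b in Trp53+/+ B, Trp53-/- B and Trp53+/+ non-B cells, and that of Cdk1 in Trp53+/+ B cells, was called under every alternative tried, as was the rise of Wee1 in Trp53-/- B cells. Counts of called members moved elsewhere. In Trp53+/+ B cells 2 of the 4 passed a threshold of 1. In Trp53+/+ non-B cells 1 was called with no filter on low values, with samples 3 and 4 alone, with a receptor-gene covariate, without unstressed samples 1 and 2, and without the irradiated samples with over 15% of receptor genes above 0 (both leave-outs chosen after seeing the data). In Trp53-/- non-B cells none was called with no filter, quantile normalization, a replicate block, a threshold of 1, or a block with crossed numbers, added after seeing the data because same-numbered samples correlated at -0.26. The genotype difference in B cells was called for 1 with samples 3 and 4 alone and 2 without the receptor-rich samples, and in non-B cells for 1 with the crossed block and 2 with samples 1 and 2 alone. Unstressed B against non-B cells gave 0 with quantile normalization, samples 3 and 4 alone, or without non-B samples 1 and 2, and the cell type difference gave 2 under either leave-out. The causes were not tested.

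Leaving out 1 sample gave 3 to 4 called in Trp53+/+ B, 1 to 7 in Trp53+/+ non-B (1 without unstressed sample 1 or 2 or irradiated sample 3, 2 without irradiated sample 2, 7 without unstressed sample 3) and 0 to 0 in Trp53-/- non-B cells. It gave 1 to 4 for the genotype difference in B cells (2 without Trp53-/- unstressed sample 1, 1 without unstressed sample 2 or irradiated sample 1) and 0 to 3 for unstressed B against non-B cells (0 without B sample 4 or non-B sample 1 or 2). Where the lone sample of a Trp53-/- group stayed, it was assumed to vary like the others. The same holds for the lone irradiated Trp53+/+ sample left in each cell type without the receptor-rich ones.

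The values that changed sign were small or not called in the main comparison. They were Cdk1 in Trp53-/- B cells (-0.020 with median-ratio scaling, -0.062 to 0.079 leaving out 1 sample) and Wee1 in Trp53+/+ B cells (-0.11 with samples 1 and 2 alone, against 0.70, adjusted p = 0.00686, with samples 3 and 4 alone and 0.62, adjusted p = 0.00678, with the receptor-gene covariate). The genotype difference changed for Cdc25b in B cells (0.092 with samples 1 and 2 alone, -0.34 to 0.16 leaving out 1) and Cdc25c in non-B cells (0.089 with samples 3 and 4 alone, 0.36 without unstressed samples 1 and 2, -1.42 to 0.00062 leaving out 1). In Trp53-/- non-B cells Pkmyt1 ran from -0.025 to 0.27 and Cdk1 from -1.37 to 0.46 leaving out 1. Unstressed Trp53-/- against Trp53+/+ B cells gave 0.024 for Cdc25a, 0.0099 for Wee1 and 0.021 for Pkmyt1 with samples 3 and 4 alone (leaving out 1, -0.16 to 0.012 for Cdc25a and -0.13 to 0.051 for Pkmyt1). In non-B cells the same comparison gave 0.013 for Cdc25b, 0.28 for Cdc25c, 0.13 for Cdk1 and 0.26 for Cdk2 with samples 3 and 4 alone and likewise without samples 1 and 2 (leaving out 1, -0.059 to 0.023 for Cdc25b, -1.69 to 0.13 for Cdk1 and -0.17 to 0.062 for Cdk2). Unstressed B against non-B cells gave 0.015, 0.24 and 0.39 for Wee1 with quantile normalization, samples 3 and 4 alone and without non-B samples 1 and 2, 0.0057 for Pkmyt1 in the last, and -0.026 for Cdc25b and -0.29 for Cdk2 with samples 1 and 2 alone (leaving out 1, -0.043 to 0.11 for Cdc25b, -0.47 to 0.015 for Wee1 and -0.084 to 0.15 for Cdk2). The cell type difference gave 0.016 for Cdk2 with samples 1 and 2 alone (-0.22 to 0.0085 leaving out 1), -0.10, -0.42 and -0.038 for Cdc25c with samples 3 and 4 alone, without unstressed non-B samples 1 and 2 and without the receptor-rich samples, and -0.54 for Cdk1 without unstressed non-B samples 1 and 2.

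Over all genes, the called count in Trp53-/- non-B cells was 62, and 24 with quantile normalization, 2 with a replicate block and 108 with the crossed block. In Trp53+/+ non-B cells it was 1381, and 440 with the receptor-gene covariate and 321 without the receptor-rich samples. The genotype difference had 2594 in B cells, and 1473 with samples 3 and 4 alone and 1641 without the receptor-rich samples, and 1031 in non-B cells, and 610 with a replicate block, 654 with samples 3 and 4 alone, 301 with the covariate and 191 without the receptor-rich samples. The cell type difference had 4392, and 2783 with samples 3 and 4 alone and 2260 without the receptor-rich samples. Unstressed Trp53-/- against Trp53+/+ cells had 7 in B and 6 in non-B cells, and 13 and 49 with samples 1 and 2 alone and 3 in non-B cells with samples 3 and 4 alone. With no fold threshold or one of 1 the counts were 7084 and 1332 in Trp53+/+ B, 5547 and 1415 in Trp53-/- B and 2615 and 637 in Trp53+/+ non-B cells. Apart from the calls named here and in the report, a replicate block changed no call of a member, and no block could be fitted for unstressed Trp53-/- against Trp53+/+ cells, whose numbers are nested in genotype. Depth limits Cdc25c most, with about 1 to 177 reads per sample, and 2 Trp53-/- samples per group leave wide intervals in non-B cells.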

Other observations

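Beyond the 7 members, 15 of the 51 pathway genes had a response that differed between genotypes in B cells by limma. Over all genes the share was 18.8%. The genes named here were chosen after their values were seen. Cdkn1a had the largest difference of the 15, 5.81 (SE 0.21, adjusted p = 1.17e-08). Chek1 had a mean RPKM of 1.57 in unstressed and 7.77 in irradiated Trp53-/- B cells and of 1.86 and 1.70 in Trp53+/+ B cells, a genotype difference of -2.07 on the log2 scale (SE 0.31, adjusted p = 0.000881, limma). Mybl2, a transcription factor of proliferating cells, went from 1.94 to 6.01 without p53 and from 3.15 to 3.38 with it (difference -1.34, SE 0.32, adjusted p = 0.0126). Rbl2 moved in opposite directions, from 30.6 to 15.5 without p53, a called fall of 0.97, and from 30.6 to 65.9 with it, and the difference of 2.06 (SE 0.099, adjusted p = 5.3e-08) had its counterpart in non-B cells at 1.08 (SE 0.12, adjusted p = 0.000463). Chek2 had a difference of 1.23 (SE 0.21, adjusted p = 0.00169), Gadd45a of 1.401 (SE 0.22, adjusted p = 0.00129) and Ccnh of -0.69 (SE 0.13, adjusted p = 0.00292). Of the cyclin and Cks genes, Ccna2 differed by -1.14 (SE 0.36, adjusted p = 0.0432) and Cks1b by -1.12 (SE 0.26, adjusted p = 0.0116). The Trp53-/- side of each rests on 2 samples per group.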
